A study of Mus musculus with 56 samples.

Results

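Mouse kidneys under day-restricted feeding (DRF) were compared with kidneys under night-restricted feeding (NRF) at a single clock time, zeitgeber time (ZT, hours after lights on) 20, in the dark phase. The 8 libraries are the kidneys labelled ZT20, 4 mice of each regimen, among 56 libraries in the series, and 13492 of the 17027 genes in the table were tested. All mice were female C57BL/6J, a common inbred laboratory strain, 7 weeks old at the start and 9 weeks old at sampling, kept in groups under 12 h of light and 12 h of dark. Every group had free access to chow and water for 7 days and then 7 days of food by day only (DRF) or by night only (NRF), and poly(A) RNA was sequenced from kidneys at 7 times, ZT0 to ZT24. At ZT20 the NRF mice were in their feeding phase and the DRF mice were in their fasting phase. The exact hours of food access were not given in the labels.

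When food is withdrawn, circulating fatty acids activate the nuclear receptor PPARA, which induces genes for fatty acid import, mitochondrial oxidation and ketone synthesis, and falling insulin frees FOXO factors to act in the nucleus. When food arrives, insulin and SREBP factors raise lipid synthesis genes, and secretory load is met by chaperones of the endoplasmic reticulum (ER). The kidney has an autonomous clock, and its tubules reabsorb salt, glucose, phosphate and water in amounts that vary over the day.

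Levels are given as scaled TPM, length-normalised transcript abundances (TPM) rebuilt from the deposited values and scaled by the median-of-ratios method over the 56 libraries. The 8 libraries held 23.8 to 25.4 M reads (M for mega) in usable genes, against 23.8 to 26.4 M over all 56. Scaling factors ran from 0.892 to 1.12 in the DRF ZT20 libraries, the lowest and the highest of the 56, and from 0.950 to 1.02 in the NRF ZT20 libraries. Across genes, which are not independent replicates, the correlation between mice of a group was 0.971 to 0.991 for DRF and 0.985 to 0.995 for NRF. The kidney label fitted the defining markers, with summed proximal tubule markers of 6811 to 9586 scaled TPM under DRF and 7671 to 10036 under NRF, and none of the 5 proximal markers tested was called. A gene is referred to as called where its difference between regimens had a Benjamini-Hochberg adjusted p under 0.05 (limma), as 21.3% of all tested genes did. Of all tested genes, 10% were called higher and 11.2% lower under DRF, shares to set beside the counts of each list.

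Marker sums of other tissues differed between single mice. The inner medulla markers Aqp2, Slc14a2, Akr1b3, Fxyd4 and Slc6a12 summed to 445, 250, 980 and 1123 scaled TPM in DRF mice 1 to 4. In NRF mice 1 to 4 they summed to 312, 367, 704 and 558. DRF mice 3 and 4 were thus the highest of the 8, and 1 of the 5 markers, Fxyd4, was called, higher under DRF. The adipose markers summed to 240, 36.8, 49.0 and 379 in DRF mice 1 to 4 and to 91.1, 236, 45.1 and 36.9 in NRF mice 1 to 4, with 0 of 5 tested markers called. DRF mice 1 and 4 and NRF mouse 2 were the high ones, and the groups overlapped. Podocyte markers summed to 246 to 308 under DRF and 314 to 392 under NRF without overlap, although only Synpo of 5 markers was called, lower under DRF. Of 6 endothelial markers only Kdr and Ehd3 were called, both lower, and the sums overlapped, 181 to 244 under DRF and 206 to 241 under NRF. Of the immune, blood and liver markers, 0 of 7, 0 of 5 and 0 of 6 were called. In whole-kidney RNA, fewer cells of a type and less RNA per cell cannot be told apart. Several gene lists had fewer calls without DRF mice 3 and 4, or without DRF mice 1 and 4 and NRF mouse 2. Those counts are given beside some of these lists only. Not given are the lower counts for autophagy, the clock, mineral handling and the Nat8 genes, among others.

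**Figure D1:**
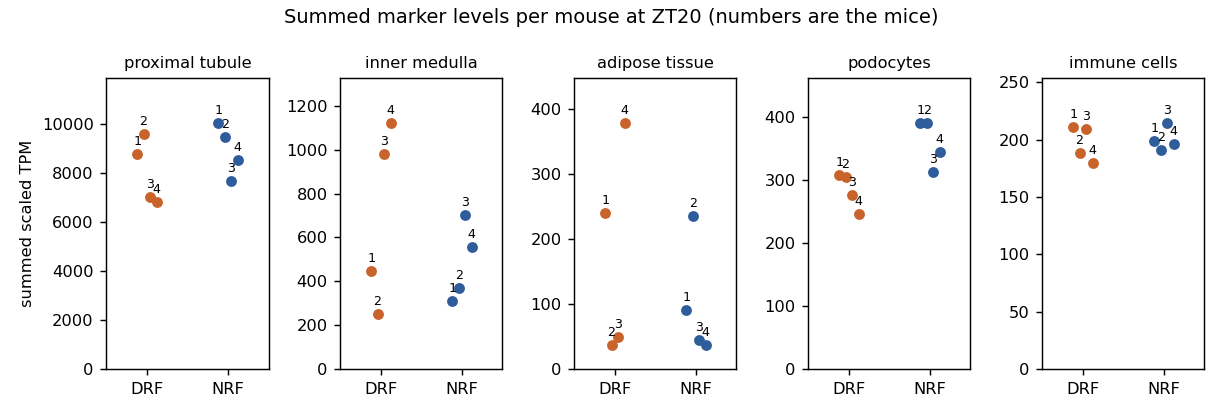
Summed scaled TPM of 5 marker lists at ZT20 (vertical axes, each from 0) in the 4 DRF and 4 NRF mice, 1 numbered point per mouse. Inner medulla sums were highest in DRF mice 3 and 4 (980 and 1123), adipose sums in DRF mice 1 and 4 and NRF mouse 2, and podocyte sums did not overlap between regimens.

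The question of the comparison was which kidney transcripts differ in the dark phase when food is offered by day instead of by night. At ZT20, 2870 of the 13492 genes (21.3%) were called. Of these, 1354 were higher (10% of the genes tested) and 1516 lower (11.2%) under DRF. The called differences were mostly small, with a median of 0.31 on the log2 scale in absolute value, or 1.24-fold. Only 340 called genes, 2.52% of those tested, differed by at least 1.5-fold, 171 upward (1.27%) and 169 downward (1.25%), and 67 by at least 2-fold, 30 upward and 37 downward. The direction split depended on the scaling. With plain TPM 2289 genes were called, 1435 higher and 854 lower, so that 62.7% of calls were higher under DRF against 47.2% with scaled TPM. The median difference of all genes was 0.05 on the log2 scale with plain TPM and -0.00 with scaled TPM.

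Without regard to the test, the 4 DRF and 4 NRF values did not overlap in 3021 genes, 22.4% of those tested. Of these genes, 1458 were higher under DRF (10.8%) and 1563 lower (11.6%). The largest rises reported among well expressed genes whose groups did not overlap were Pdk4, Angptl4, Cyp24a1, Lgals4, Gm43305, Cyp4a14, Nr1d1, 9530057J20Rik and Klf11. The largest falls reported were Nat8f6, Sdf2l1, Ppard, Dleu7, Nat8f3, Creld2, Per2, Srebf1 and Scd2.

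**Figure D2:**
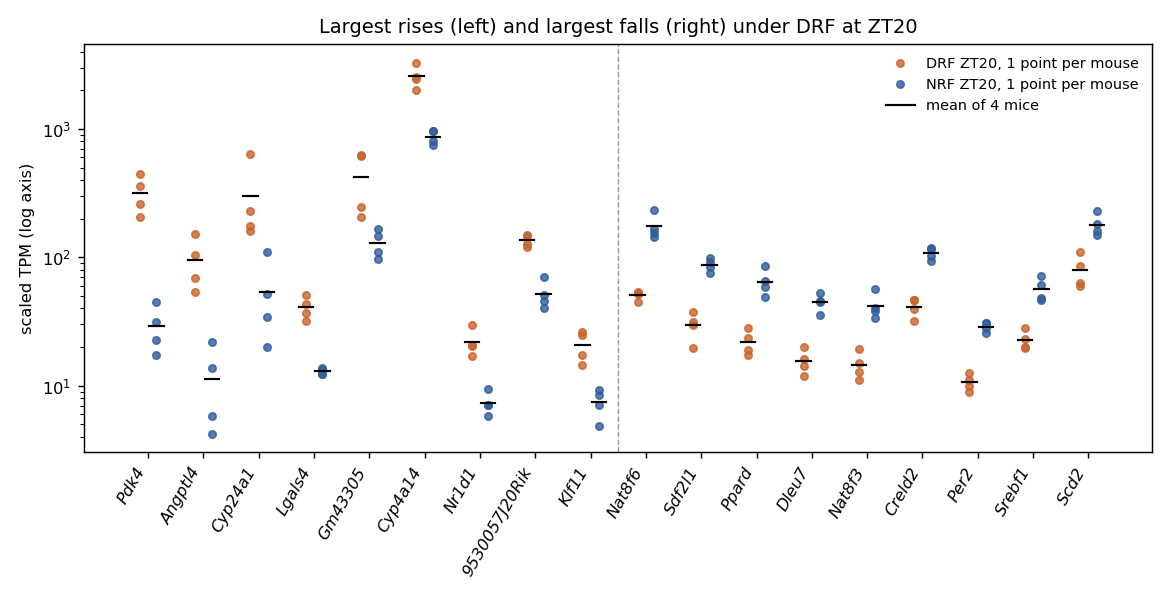
Scaled TPM (vertical log axis) at ZT20 of 9 of the 10 genes that the naming rule picked in each direction, 1 point per mouse and a black line at the mean of 4 mice. Pdk4 shows the widest gap, 206 to 447 under DRF against 17.4 to 44.7 under NRF, and Cyp24a1 has 1 DRF mouse, at 634, far above the others.

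The rises of Pdk4 and Angptl4, the largest reported, were in members of the list for the fasting fuel switch and ketogenesis. Pdk4 (Entrez gene 27273, chromosome 6, positions 5483351 to 5496278, GRCm38) encodes the kinase that shuts pyruvate out of the citric acid cycle. Its level was 447, 262, 357 and 206 scaled TPM in the DRF mice and 17.4, 44.7, 31.6 and 22.5 in the NRF mice. Every DRF mouse was thus several times above the highest NRF mouse, and the ratio of the group means was 11.0. The difference on the log2(scaled TPM + 1) scale, used for every log2 difference here, was 3.43 ± 0.32 (SE, n = 4 mice per group, limma adjusted p = 2.28e-10). Angptl4 (chromosome 17, 33774900 to 33781575), a secreted inhibitor of lipoprotein lipase, stood at 153, 69.4, 105 and 53.7 under DRF and at 4.23, 21.7, 13.7 and 5.78 under NRF. The groups were far apart, with an 8.38-fold higher DRF mean (3.09 ± 0.41, adjusted p = 3.55e-07).

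Of the 19 members tested of the list for the fasting fuel switch and ketogenesis, 7 rose, 0 fell and 12 were not called, with a median log2 difference of 0.22, where 10% of all tested genes rose and 11.2% fell. Without DRF mice 3 and 4, 6 members rose, and without DRF mice 1 and 4 and NRF mouse 2, 5 did. Of the 17 members with whole reads at annotated lengths, which leave out Angptl4, 5 rose. Fgf21 was in the table but below the filter on low levels. Plin5, which coats lipid droplets beside mitochondria, was 13.8, 11.8, 10.6 and 10.02 in the DRF mice and 3.21, 4.22, 3.22 and 3.44 in the NRF mice. These values gave a difference of 1.47 ± 0.18 (adjusted p = 5.33e-08). Pnpla2, the first lipase of triglyceride breakdown, rose 1.62-fold and Plin2, another droplet coat protein, rose by 0.63 on the log2 scale. Lipe, the hormone-sensitive lipase, had a difference of 1.10 (adjusted p = 0.0129), but its groups overlapped and its highest DRF values, 29.9 and 36.0, were those of DRF mice 1 and 4. Its call was lost in the fit without DRF mice 1 and 4 and NRF mouse 2. The value of that NRF mouse, 16.1, was the highest under NRF. The ketone-using enzymes Oxct1 (-0.09), Acat1 (-0.12) and Bdh1 (0.13) were not called, nor were Pdk1 to Pdk3, the other kinases of pyruvate dehydrogenase.

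Fatty acid oxidation genes rose broadly but modestly. Of 39 tested members of the list of PPARA targets and fatty acid oxidation, 22 rose and 0 fell, with a median of 0.28 on the log2 scale. The highest value belonged to Cyp4a14 (Entrez gene 13119, chromosome 4, 115486200 to 115496158), an omega-hydroxylase of fatty acids. It measured 3284, 2435, 2553 and 2005 scaled TPM under DRF and 958, 962, 752 and 809 under NRF. The lowest DRF mouse was above the highest NRF mouse by a wide margin, and the DRF mean was 2.95-fold higher (1.55 ± 0.18, adjusted p = 1.6e-08). The related genes Cyp4a10 and Cyp4a31 were left out because no gene length fitted their values.

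Cpt1a, which makes the acyl-carnitines that enter mitochondria, stood at 533, 501, 471 and 449 in DRF mice and 242, 292, 259 and 254 in NRF mice. The ratio was 1.87 and the difference 0.90 ± 0.09 (adjusted p = 2.59e-09). The carnitine carrier Slc25a20 (0.73), Cpt2 (0.64), the long-chain acyl-CoA synthetase Acsl1 (0.72) and the peroxisomal enzyme Ehhadh (0.73) rose as well. The thioesterases Acot1 and Acot2 rose 2.07-fold and 1.98-fold, with the reservation that reads of these near-identical neighbours were shared out in fractions. Ppara itself rose 1.47-fold, from 93.6 to 130 in the NRF mice to 143 to 161 in the DRF mice. The matrix enzymes of each oxidation round moved less. Acadl, Acadvl and Hadha rose by 0.20 to 0.24 on the log2 scale, and Acadm (-0.05) and Hadh (0.02) were not called. Without DRF mice 1 and 4 and NRF mouse 2, 15 of the 39 members were called, all higher. With all mice kept and inner medulla and adipose sums as covariates, 27 were higher and 0 lower.

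Ppard, which encodes the PPAR form found in most tissues, went the other way. It measured 23.6, 28.2, 18.9 and 17.3 under DRF and 85.6, 65.0, 48.7 and 58.6 under NRF, a 2.93-fold lower DRF mean (-1.50 ± 0.18, adjusted p = 4.05e-08). No DRF mouse reached the lowest NRF mouse. Klf11, a transcription factor of the Krüppel-like family, rose 2.78-fold without overlap, and Lgals4, a galectin, rose 3.15-fold. Lgals4 was 50.5, 32.2, 43.4 and 36.9 in the DRF mice and 12.2 to 13.8 in all 4 NRF mice.

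Genes under insulin and FOXO control were mixed. Of 23 tested, 8 rose and 2 fell, with a median of 0.15. Without DRF mouse 3 or 4 or NRF mouse 1 or 4, 4 rose, and 3 rose without DRF mice 3 and 4 or without DRF mice 1 and 4 and NRF mouse 2. With all mice kept and inner medulla and adipose sums as covariates, 7 rose and 2 fell. Txnip, an inhibitor of glucose uptake and of thioredoxin, was 753, 545, 679 and 504 under DRF and 221, 354, 318 and 225 under NRF, 2.22-fold higher without overlap (1.16 ± 0.20, adjusted p = 2.45e-05). Insr, the insulin receptor, rose by 0.25 and Pik3ip1, an inhibitor of phosphoinositide 3-kinase, by 0.63. Klf15, which induces amino acid breakdown, fell 1.63-fold, and its call was lost without DRF mice 3 and 4. Irs2 (0.55), Depp1 (1.31) and Gadd45b (0.74) were called at adjusted p-values of 0.0343, 0.04 and 0.0448, and each call was lost in at least 7 of the alternatives, leaving out DRF mouse 3 or 4 among them. Foxo1, Foxo3 and Irs1 were not called (-0.02, -0.00 and -0.13).

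Cholesterol genes fell together. Of 25 members tested, 18 were lower, 0 higher and 7 not called, with a median log2 difference of -0.46 beside -0.00 for all genes. Msmo1, Fdps, Idi1 and Sqle, enzymes between mevalonate and cholesterol, were lower by 0.83 to 0.98 on the log2 scale. Msmo1 was 16.8, 17.1, 16.3 and 17.3 scaled TPM in the DRF mice and 41.2, 30.7, 31.6 and 33.7 in the NRF mice. Its groups were well apart, with a 2.04-fold lower DRF mean (-0.98 ± 0.13, adjusted p = 3.92e-07). Fdps, which makes farnesyl diphosphate, was 13.7 to 15.4 under DRF and 23.8 to 36.5 under NRF.

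Hmgcs1, the cytosolic synthase early in the pathway, fell 1.37-fold, a call lost without NRF mouse 1. Cyp51 (-0.19), Nsdhl (-0.33), Sc5d (-0.09), Hsd17b7 (0.01), Ebp (0.02) and Tm7sf2 (0.08) were not called. Without DRF mice 3 and 4, 13 of the 25 members were called, and without DRF mice 1 and 4 and NRF mouse 2, 12 were, all lower.

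Fatty acid synthesis genes did not move as a group: 4 of 18 were lower, 1 was higher and the median was -0.01. Without DRF mice 3 and 4, or without DRF mice 1 and 4 and NRF mouse 2, 2 were lower. Srebf1 (Entrez gene 20787, chromosome 11, 60199084 to 60224186), the insulin-responsive SREBP gene, was 19.8, 19.7, 23.1 and 28.2 under DRF and 71.1, 48.3, 46.4 and 60.8 under NRF. It was 2.50-fold lower without overlap (-1.28 ± 0.15, adjusted p = 1.53e-08). The desaturase Scd2 fell 2.26-fold, from 149 to 229 in the NRF mice to 59.7 to 110 in the DRF mice, and the desaturases Fads1 and Fads2 fell by 0.41 and 0.36. The call of Fads1 was lost without DRF mice 3 and 4 and without DRF mice 1 and 4 and NRF mouse 2. Gpam, which starts triglyceride assembly, rose 1.48-fold. Fasn, the fatty acid synthase, was 84.8, 25.4, 29.6 and 215 under DRF and 88.6, 129, 36.2 and 38.0 under NRF (-0.04 ± 0.65, adjusted p = 0.972). Its highest values, 215 and 129, lay in DRF mouse 4 and NRF mouse 2, which had high adipose marker sums. NRF mouse 1, at 88.6, was above DRF mouse 1, at 84.8, with adipose sums of 91.1 and 240. The part of adipose tissue in these values was not tested. Acly (-0.10) and Acaca (0.01) were not called.

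The chaperones of the ER fell broadly. Of 33 members tested, 22 were lower and 1 higher, with a median of -0.26. Hspa5 (Entrez gene 14828, chromosome 2, 34772090 to 34776529), the ER form of the heat shock 70 chaperone, was 378, 368, 341 and 312 scaled TPM in the DRF mice and 693, 672, 754 and 678 in the NRF mice. The 2 groups were tight and far apart, with means of 350 ± 29.7 and 699 ± 37.6 (SD, n = 4), a 2-fold ratio (-1.0 ± 0.15, adjusted p = 3.08e-06). Sdf2l1 (chromosome 16, 17130138 to 17132383), a cofactor of that chaperone, was 37.2, 29.9, 31.1 and 19.6 against 83.6, 75.5, 99.3 and 91.2 (-1.56 ± 0.20, adjusted p = 1.34e-07). Creld2, an ER stress protein, was 46.3, 46.1, 39.8 and 31.7 against 117, 93.9, 116 and 103, 2.63-fold lower.

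Further members covered each stage of folding and disposal. The lectin chaperones Calr (-0.73) and Canx (-0.26), the ER member of the Hsp90 family Hsp90b1 (-0.85) and the disulphide isomerases Pdia3, Pdia4 and Pdia6 (-0.55 to -0.79) fell. Hyou1, a nucleotide exchange factor for Hspa5, fell 2.07-fold, with 39.99 to 42.5 in all 4 DRF mice and 80.3 to 90.3 in the NRF mice. In the degradation arm, Derl3 fell 2.72-fold, and Syvn1 (-0.25), Edem1 (-0.25) and Sel1l (-0.18) fell less. Dnajb9, a cochaperone that holds the sensor IRE1 inactive, was the single member that rose (0.34). Its call was lost with the deposited values and without DRF mouse 2, 3 or 4 or NRF mouse 1, 3 or 4. The sensor genes Atf6 (-0.04), Ern1 (0.18) and Eif2ak3 (0.07) and the death-linked factor Ddit3 (-0.16) were not called. Xbp1 was lower in every DRF mouse than in every NRF mouse (149 to 187 against 194 to 217) but its difference of -0.28 had an adjusted p of 0.0603, and it was called in 5 of the alternatives. Without DRF mice 3 and 4, 14 members were lower, and without DRF mice 1 and 4 and NRF mouse 2, 16 were. With all mice kept and inner medulla and adipose sums as covariates, 24 were lower and 1 higher.

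Promoter sequences are shown for the ER chaperones because many of the members that fell share 1 element. The ER stress response element (CCAAT, any 9 bases, then CCACG, searched on both strands) was looked for in RefSeq promoters of GRCm38.p6, from 250 bases before to 50 bases after each start. It was present in 10 of the 28 ER list members with a promoter in the table, or 35.7%. All 10 were among the 19 lower members with a promoter (52.6%), and the 9 other members with a promoter had none. Among all tested genes with a promoter, 20 of 10747 held it (0.186%). Of the 10 outside the ER list, 3 were lower and 0 higher. A match describes letters in the window and not a bound site. Stretches of 6 promoters are printed to show the element at its distances from the start, with the element or its reverse complement in capitals and each stretch read 5′ to 3′ on the gene's strand. The element of Hspa5, chr2:34771985-34772083 on the plus strand, began 65 bases before the start. That of Pdia6 (chr12:17266451-17266549, plus) began 98 bases before, that of Dnajc3 (chr14:118937787-118937885, plus) 105 bases and that of Creld2 (chr15:88819480-88819578, plus) 126 bases. In Derl3 (chr10:75893202-75893300, plus) the distance was 156 bases, and Hsp90b1 (chr10:86705493-86705694, minus) held 2 elements, the farther one 212 bases before the start.
Hspa5: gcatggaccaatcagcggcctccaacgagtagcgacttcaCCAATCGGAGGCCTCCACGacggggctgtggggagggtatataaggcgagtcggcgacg
Pdia6: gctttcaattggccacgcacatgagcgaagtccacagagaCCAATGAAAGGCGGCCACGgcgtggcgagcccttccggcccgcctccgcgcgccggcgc
Dnajc3: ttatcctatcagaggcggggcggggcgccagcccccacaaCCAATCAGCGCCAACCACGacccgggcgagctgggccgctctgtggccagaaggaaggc
Creld2: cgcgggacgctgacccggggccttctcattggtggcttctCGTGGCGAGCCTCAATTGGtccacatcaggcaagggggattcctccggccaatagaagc
Derl3: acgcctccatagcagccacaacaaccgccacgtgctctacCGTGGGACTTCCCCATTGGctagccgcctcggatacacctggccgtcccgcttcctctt
Hsp90b1: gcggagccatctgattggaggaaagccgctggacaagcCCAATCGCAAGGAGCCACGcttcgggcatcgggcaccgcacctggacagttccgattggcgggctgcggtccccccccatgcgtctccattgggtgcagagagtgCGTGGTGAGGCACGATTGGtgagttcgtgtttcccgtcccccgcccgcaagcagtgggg

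A sterol regulatory element (TCAC, any base, CCAC, both strands) was found in the same windows for Hmgcs1 alone of 17 cholesterol genes (5.88%) and for Mlxipl alone of 15 fatty acid synthesis genes (6.67%), against 1.39% of all tested genes with a promoter. These letters are only 1 form of the element.

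Heat shock genes, cytosolic and mitochondrial, fell in part. Of 20 heat shock genes tested, 11 were lower and 0 higher, with a median of -0.25. Without DRF mice 3 and 4, 7 were lower, and without DRF mice 1 and 4 and NRF mouse 2, 8 were. Hsp90aa1, the inducible cytosolic Hsp90, was 461, 420, 446 and 413 under DRF and 732, 665, 715 and 704 under NRF, 1.62-fold lower without overlap. Its cochaperones Chordc1, Stip1 and Fkbp4 fell 2-fold, 1.63-fold and 1.56-fold, each without overlap, and Ahsa1, which stimulates its ATPase, fell by 0.52. The mitochondrial pair Hspe1 (-0.49) and Hspd1 (-0.25) was lower too. Hspa8, the constitutive cytosolic Hsp70, had overlapping groups (998 to 1947 under NRF, 1236 to 1504 under DRF), and the inducible Hspa1a (0.48) and Hspa1b (0.40) and the small chaperone Cryab (0.74) were positive but not called.

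The cold-inducible RNA-binding genes went up. Cirbp was 68.1, 70.1, 56.3 and 59.7 in the DRF mice and 27.3, 19.6, 27.1 and 27.9 in the NRF mice, a 2.49-fold ratio (1.29 ± 0.14, adjusted p = 3.44e-09). Rbm3 rose 1.52-fold, from 41.8 to 56.3 under NRF to 71.7 to 81.3 under DRF. Both kept these calls in every alternative tried.

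Genes of protein synthesis were lower in parts. Of 22 aminoacyl-tRNA synthetase genes, which charge tRNAs with amino acids, 13 were lower and 2 higher, with a median of -0.18. With plain TPM, 7 were lower and 2 higher, and 8 were lower without DRF mice 3 and 4 and 9 without DRF mice 1 and 4 and NRF mouse 2. Aars, for alanine, was 33.5 to 35.5 under DRF and 42.6 to 47.1 under NRF (-0.38 ± 0.05, adjusted p = 1.03e-06), and Wars, Yars and Iars fell 1.29-fold, 1.28-fold and 1.25-fold without overlap. Lars (0.25) and Qars (0.28) rose. Of 20 genes of the amino acid response driven by ATF4, 5 fell, 0 rose, and the median was -0.13. There were 3 falls without NRF mouse 3 or without DRF mice 3 and 4. With only the 8 ZT20 libraries and a replicate block 2 fell, as did 2 of 15 with a mean TPM of at least 5. Chac1, which degrades glutathione, fell 4.35-fold from low levels, 1.37, 1.11, 1.79 and 2.34 under DRF against 4.25, 2.65, 10.2 and 11.7 under NRF. Atf4 itself (-0.09) and Asns (-0.55) were not called. Ribosome biogenesis genes split into 8 lower and 4 higher of 27, with Heatr1 (-0.41) and Bop1 (-0.40) lowest and Polr1c (0.35) highest. This balance turned with plain TPM, where 3 were lower and 4 higher, and 4 were lower without DRF mouse 3, without NRF mouse 1, without DRF mice 3 and 4, or without DRF mice 1 and 4 and NRF mouse 2. Of 80 cytosolic ribosomal protein genes 1 was higher and 0 lower, with a median of -0.03, which was 0.02 with plain TPM. Of 37 proteasome genes 10 were lower and 0 higher, and with plain TPM 3 were lower. The respiratory complexes barely differed, with 3 of 48 complex I genes lower and 0 of 17 ATP synthase genes called.

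Glucose production genes did not share a direction. G6pc, the last step of glucose release, was 695, 877, 605 and 538 under DRF and 1618, 1659, 1045 and 1257 under NRF, 2.06-fold lower without overlap (-1.04 ± 0.23, adjusted p = 0.000723). The call was lost without DRF mice 1 and 4 and NRF mouse 2. Pck1, the cytosolic entry step, had overlapping groups, 5344 to 7276 under DRF and 5524 to 6749 under NRF (0.10 ± 0.23, adjusted p = 0.81). Fbp1 between them was 1815 to 2392 and 1969 to 2303. Got1, the cytosolic aspartate aminotransferase, fell 1.37-fold, and the glutamine transporter Slc38a3 rose 1.49-fold, a call lost without DRF mouse 1 or NRF mouse 2. Of 14 members tested, 1 was higher and 2 lower.

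In the clock list, 3 of 19 genes rose, 2 fell and 14 were not called, with a median of -0.14. Among all tested genes, 10% rose and 11.2% fell. Per2, which represses the clock's activators, was 9.88, 8.98, 12.7 and 11.1 under DRF and 30.8, 30.7, 28.1 and 25.6 under NRF. The groups were separate and the DRF mean was 2.70-fold lower (-1.36 ± 0.17, adjusted p = 1.38e-07). Nr1d1, which encodes the repressor REV-ERBα, was 20.8, 16.9, 20.5 and 29.7 against 7.08, 5.79, 9.38 and 7.03, or 3-fold higher (1.45 ± 0.25, adjusted p = 2.14e-05). Its reads were deposited in fractions, as for genes that overlap another. Its partner Nr1d2 rose 2.16-fold, 26.0 to 35.8 against 11.7 to 16.1. Rora, an activator that competes with them, rose 1.25-fold and Clock fell 1.22-fold, but neither call held in every alternative. Arntl (-0.39, adjusted p = 0.0853), Dbp (0.71, adjusted p = 0.116), Cry1 (-0.42), Nfil3 (-0.42) and Per1 (-0.35) were not called. The Dbp groups did not overlap, with 8.36 to 12.95 under DRF and 5.12 to 6.86 under NRF. With only the 8 ZT20 libraries in the fit, 4 clock genes rose and 4 fell.

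Only 2 of 15 tested targets of the glucocorticoid receptor were called, in opposite directions. Tsc22d3 fell 1.82-fold (21.0, 17.7, 27.3 and 32.9 under DRF, 46.3, 44.1, 51.9 and 38.0 under NRF), and the metallothionein gene Mt2 rose 1.84-fold, a call lost without DRF mouse 1 or NRF mouse 1. Fkbp5 (-0.21), Sgk1 (0.02) and Klf9 (0.03) were not called, and the list's median was 0.03.

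Genes of tubular transport were called in part. Of 23 sodium, potassium and chloride transport genes, 6 fell and 0 rose, with a median of -0.17, where 11.2% of all tested genes fell. Scnn1a, the alpha subunit of the epithelial sodium channel, was 170, 182, 176 and 146 under DRF and 247, 234, 235 and 253 under NRF, 1.44-fold lower without overlap (-0.53 ± 0.09, adjusted p = 5.69e-05). The gamma subunit gene Scnn1g fell 1.43-fold and Hsd11b2, which shields the mineralocorticoid receptor from corticosterone, fell 1.33-fold. Summed principal cell markers, which include Hsd11b2, overlapped (755 to 1263 under DRF, 845 to 1044 under NRF), and their part in these falls was not tested. Kcnj1 (-0.36), Kcnj10 (-0.31) and the kinase gene Wnk1 (-0.40) were the other falls. Without DRF mice 3 and 4, 1 member of the list was called, and without DRF mice 1 and 4 and NRF mouse 2, 2 members were, in each case lower under DRF. With all mice kept and inner medulla and adipose sums as covariates, 7 fell and 0 rose. Slc12a3, the thiazide-sensitive cotransporter (-0.24), Slc12a1, the loop cotransporter (0.27), and Slc9a3, the proximal exchanger (-0.11), were not called.

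Aqp2, the water channel gene of the collecting duct, was high in the mice with high inner medulla sums. It was 259, 195, 613 and 623 in DRF mice 1 to 4 and 268, 246, 412 and 348 in NRF mice 1 to 4 (0.26 ± 0.36, adjusted p = 0.661). It is itself 1 of the inner medulla markers. Aqp1, of the proximal tubule, was 1032 to 1170 and 913 to 1339. Avpr2, the vasopressin receptor gene, was the 1 called gene of 15 (-0.51, adjusted p = 0.0372), and its call was lost in at least 8 alternatives, without DRF mouse 1, 2 or 3 and without NRF mouse 1, 3 or 4 among them. Of 17 glucose and amino acid transporter genes, Slc7a9 rose 1.40-fold, a call lost without DRF mouse 2, and Slc5a1 fell 1.28-fold, a call lost without DRF mice 3 and 4. Of 17 organic ion transporter genes only Slc22a5, the carnitine transporter, rose (1.33-fold), a call lost without DRF mouse 1 or 2 or NRF mouse 3 or 4. Slc2a2, Slc6a19, Slc22a6 and Slc34a1 were not called (0.02, 0.58, -0.14 and -0.11).

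Among the genes of mineral handling, the largest rise was in vitamin D breakdown. Cyp24a1 (Entrez gene 13081, chromosome 2, 170482957 to 170497145), the hydroxylase that inactivates vitamin D, was 634, 160, 230 and 175 scaled TPM under DRF and 19.98, 34.4, 51.4 and 110 under NRF. All DRF mice were above all NRF mice, with a 5.56-fold ratio of means (2.48 ± 0.58, adjusted p = 0.0014). The value of 634 in DRF mouse 1 was far above the other 3. The call was lost without DRF mice 1 and 4 and NRF mouse 2 and held without any single mouse. Vdr, the vitamin D receptor gene, rose 1.59-fold, 265 to 320 against 161 to 204 (0.66 ± 0.12, adjusted p = 8.17e-05), and that call held in every alternative. Cyp27b1, the activating hydroxylase, was 12.2, 2.58, 5.19 and 7.31 against 3.58, 7.69, 6.60 and 4.63 and was not called (adjusted p = 0.868). Of the 19 genes of this list 3 rose and 2 fell, the falls being Slc8a1 and Trpm6, each lost without DRF mouse 3 or 4 or NRF mouse 1 or 2.

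The Nat8 genes, a chromosome 6 cluster for acetyltransferases of the ER, included 2 of the largest falls reported. Nat8f6 (85808044 to 85809877) was 54.1, 52.6, 44.6 and 51.4 under DRF and 234, 145, 153 and 167 under NRF, 3.45-fold lower (-1.74 ± 0.26, adjusted p = 2.51e-06). Nat8f3 fell 2.88-fold, Nat8f7 by 1.08 and Nat8f1 by 0.85 on the log2 scale, so 4 of 8 fell and 0 rose. The reads of Nat8f6, Nat8f3 and Nat8 were shared in fractions among similar genes, so the values of single genes are uncertain.

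Other lists held single strong genes. In the autophagy list 7 of 19 rose and 2 fell, and Gabarapl1, an ATG8 protein of the autophagosome, was 1731, 1788, 1625 and 1465 against 878, 887, 886 and 895 (0.89 ± 0.11, adjusted p = 8.08e-08). The lowest DRF mouse was well above the 4 closely grouped NRF mice. Egln3, a prolyl hydroxylase of hypoxia-inducible factors, rose 2.02-fold and Vegfa fell 1.28-fold, the only 2 calls among 11 hypoxia genes. Acmsd, which diverts tryptophan away from NAD synthesis, fell 2.14-fold, 1 of 3 lower genes of 12 in the NAD list, of which 0 were called without DRF mice 3 and 4 or without DRF mice 1 and 4 and NRF mouse 2. Rsad2 (-0.50) was the 1 called gene of 22 interferon response genes. Of 8 renin-angiotensin genes, Agt rose (0.50, adjusted p = 0.0419) and Anpep fell (-0.30), while Ren1 overlapped, 57.7 to 179 against 85.3 to 240. The call of Agt was lost without DRF mouse 1, 2 or 3 or NRF mouse 1 or 2. That of Anpep was lost without DRF mouse 1, 3 or 4 or NRF mouse 1, 2 or 3. Immediate early genes gave 2 rises of 13, Myc and Maff, the call of Maff being lost without DRF mouse 3 or NRF mouse 2 and both calls without DRF mice 1 and 4 and NRF mouse 2. The NRF2 list gave 1 rise (Nqo1) and 1 fall (Keap1) of 18, and the cell cycle list 0 calls of 7. Nqo1 was not called without DRF mouse 1 or 4 or NRF mouse 2 or 3, nor Keap1 without DRF mouse 1 or 3 or NRF mouse 1.

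Kap, the androgen-regulated protein gene that is the most abundant kidney transcript, was 65142, 168077, 69113 and 60773 scaled TPM under DRF and 81864, 72767, 144303 and 114583 under NRF (-0.27 ± 0.34, adjusted p = 0.621). The spread between mice of a regimen exceeded the difference between regimens. Gm43305 and 9530057J20Rik, predicted genes with reads in fractions, were 3.27-fold and 2.63-fold higher. The values of Gm43305 were 208, 247, 629 and 615 in DRF mice 1 to 4 and 96.6 to 167 under NRF, high in the mice with high inner medulla sums, and its call was lost without DRF mouse 3 or 4 or NRF mouse 1 or 2. Dleu7 fell 2.86-fold, 11.9 to 19.9 against 35.2 to 52.4.

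**Figure D3:**
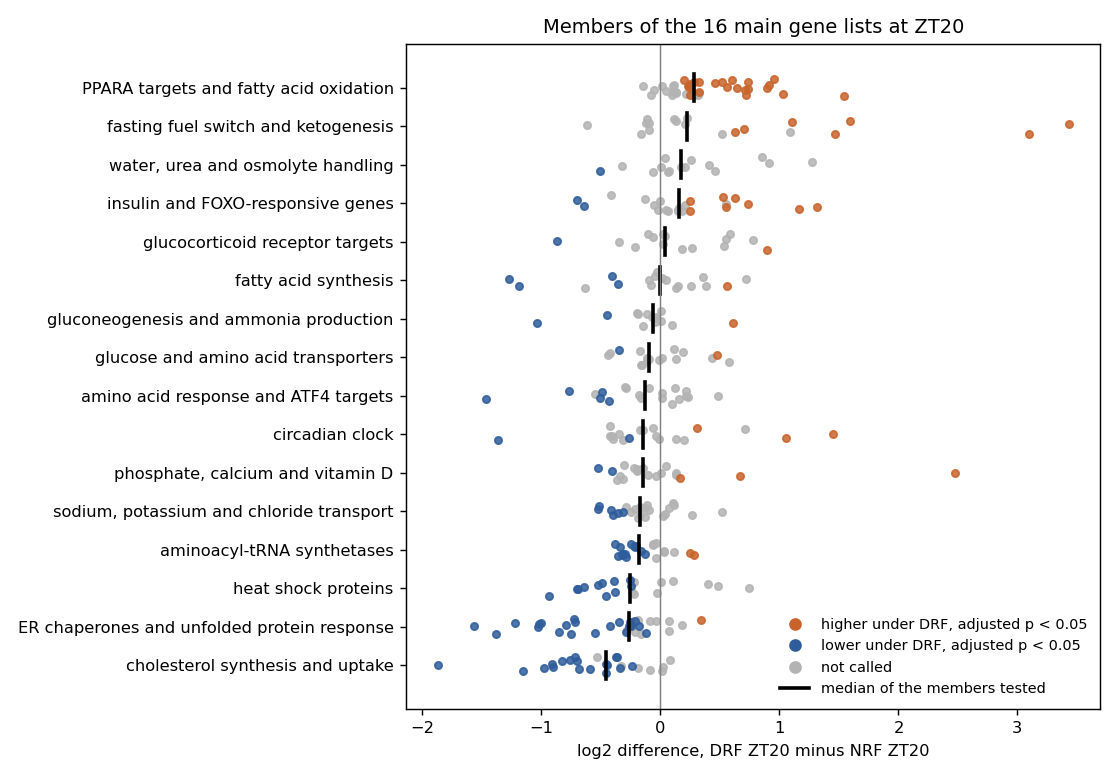
Log2 difference, DRF ZT20 minus NRF ZT20 (horizontal axis), of each tested member of 16 gene lists, with the list's median as a black bar; colour marks the members called higher or lower. Cholesterol genes centre at -0.46 and ER chaperones at -0.26, while the lists of fatty acid oxidation (0.28) and fasting fuel switch (0.22) lie above 0.

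ZT8, 12 h from ZT20, is the light-phase time at which DRF mice were in their feeding phase and NRF mice were not, and it used other mice. There, 2616 genes differed between regimens (19.4% of those tested), 1241 higher (9.20%) and 1375 lower (10.2%) under DRF. The regimen difference itself changed between ZT20 and ZT8 in 4246 genes, 31.5% of those tested (limma, contrast of the 2 differences), 2121 more positive (15.7%) and 2125 more negative (15.8%) at ZT20. That contrast and the comparison at ZT20 share the ZT20 mice. Genes called at both times numbered 989, which was 34.5% of the ZT20 calls and 37.8% of the ZT8 calls. Of these, 950 had opposite directions, 480 of them higher under DRF at ZT20 and lower at ZT8 and 470 the reverse, and 39 had the same direction.

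Pdk4 and Angptl4 reversed between the times. The mean of Pdk4 was 318 ± 106 under DRF and 29.0 ± 12.0 under NRF at ZT20 and 10.3 ± 4.23 and 94.0 ± 25.8 at ZT8 (SD, n = 4), and the difference between the log2 differences was 6.55 (adjusted p = 4.94e-15). It was 6.81 for Angptl4, and Lgals4 (3.46), Srebf1 (-2.90) and Nat8f6 (-3.29) also reversed, each called at both times. Creld2, Hspa5 and Msmo1 were lower at ZT20 and had differences of 0.06, 0.14 and 0.02 at ZT8, none of them called there, and the contrast between times was called for each. Cyp4a14 was high under DRF at both times in level, 1968 ± 215 against 1788 ± 379 at ZT8, where its difference of 0.16 was not called (adjusted p = 0.589). Ppard had low levels in both regimens at ZT8, 11.8 and 10.1, and the contrast between times was called (-1.72, adjusted p = 1.09e-06).

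**Figure D4:**
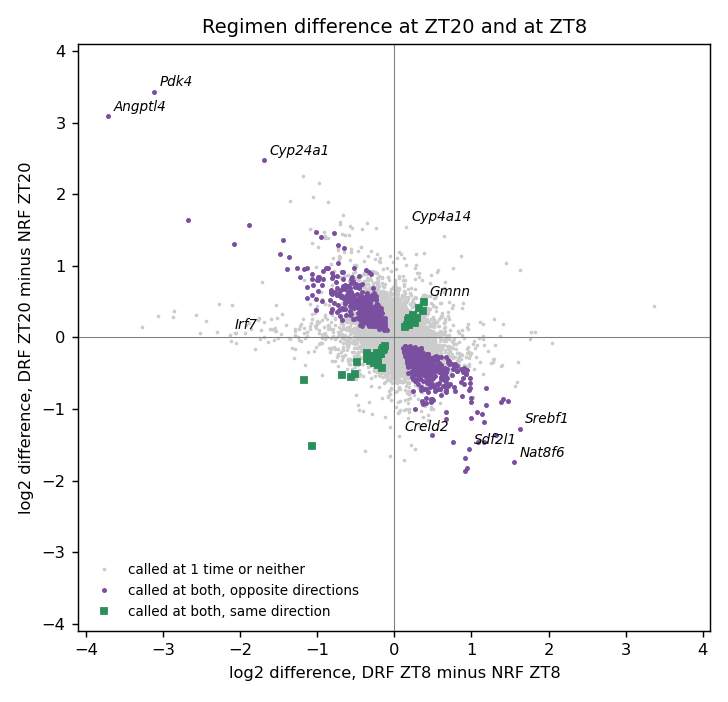
Log2 difference between DRF and NRF at ZT20 (vertical axis) against that at ZT8 (horizontal axis), 1 point per tested gene. Genes called at both times lay mostly in the quadrants of opposite sign (950 of 989), with Pdk4 and Angptl4 farthest at the upper left.

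By list, 22 PPARA and fatty acid oxidation genes and 8 fuel switch genes had a more positive difference at ZT20 than at ZT8 and 0 a more negative one. In the cholesterol list 15 were more negative and 1 more positive, in the ER list 21 and 1, and in the heat shock list 11 and 0. The cholesterol list itself had 4 higher and 1 lower gene at ZT8 and the ER list 6 higher and 0 lower. The interferon list was opposite in kind, with 20 of 22 genes lower under DRF at ZT8 (median -1.46) and 1 lower at ZT20 (median -0.01). The contrast between times was called, more positive at ZT20, for 18 of these genes. Irf7, a regulator of that response, had a difference of 0.04 at ZT20 and -2.14 at ZT8 (adjusted p = 5.62e-07).

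Cmpk2, Gmnn and Mndal had the largest differences shared by ZT20 and ZT8 among the well expressed genes called in the same direction at both. Gmnn, an inhibitor of DNA replication licensing, was 25.7, 22.6, 26.8 and 23.2 under DRF and 15.6, 17.3, 19.1 and 16.5 under NRF at ZT20, 1.43-fold higher, and also higher at ZT8 (0.38). Cmpk2, a mitochondrial nucleotide kinase induced by interferon, was 1.45-fold lower at ZT20 (-0.51) and lower by a like amount at ZT8 (-0.52). Mndal, also an interferon-inducible gene, was lower at both times (-0.34 and -0.48), with fractional reads, and its ZT20 call was lost without DRF mouse 3 or NRF mouse 1 or 3.

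Against the mean of the regimen differences at the other 5 clock times (ZT0 and ZT24 counted as 1), the ZT20 difference was distinct in 4083 genes, 30.3% of those tested, 1906 more positive (14.1%) and 2177 more negative (16.1%). Pdk4 (4.07), Angptl4 (3.32), Cyp24a1 (2.51), Per2 (-1.90) and Hspa5 (-1.24) were among them. Gm43305 was not (adjusted p = 0.074). This contrast, too, shares the ZT20 mice with the comparison at ZT20.

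The levels over the day placed ZT20 within each gene's course. Pdk4 and Cyp24a1 under DRF had their highest mean of the 14 groups at ZT20. Srebf1 under DRF stayed at 22.7 or below at ZT20, ZT24 and ZT0 and was 56.5 to 62.3 from ZT4 to ZT12. Hspa5 under NRF was highest at ZT16, 1083 ± 124, and 699 ± 37.6 at ZT20. Under DRF it was high at 2 times, 863 ± 204 at ZT4 and 773 ± 65.8 at ZT16, and had come down to 350 ± 29.7 at ZT20. Per2 was highest at ZT16 under NRF (70.9 ± 2.25) and at ZT12 under DRF (60.5 ± 11.5), and ZT20 fell on the declining side in both. Cyp4a14 was at 1620 or above at every time under DRF and at or below 1203 under NRF except at ZT8. Scnn1a and Hmgcs1 had their lowest mean of the 14 groups in the DRF ZT20 mice.

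**Figure D5:**
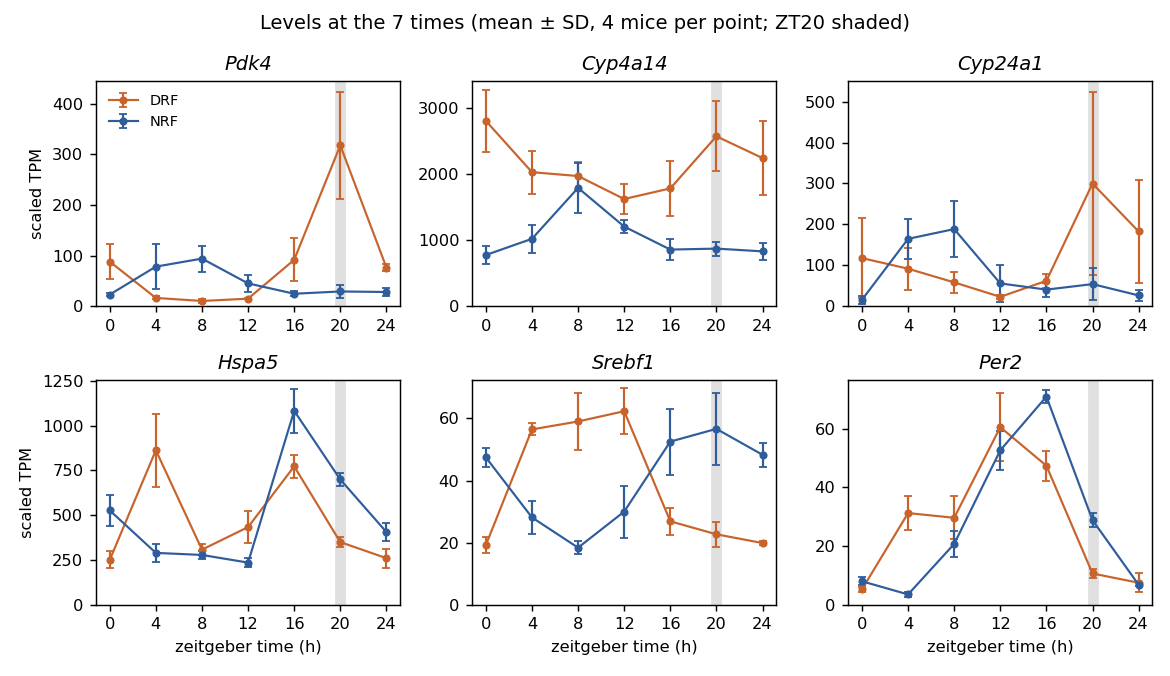
Scaled TPM (vertical axes from 0) of 6 genes against zeitgeber time in hours, mean ± SD of 4 mice per point, with ZT20 shaded. At ZT20 the DRF mean of Pdk4 peaked at 318, Hspa5 had fallen to 350 from 773 at ZT16, and Per2 was at 10.7 against 28.8 under NRF.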

How the data were processed

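Kidney poly(A) RNA of 56 mice was sequenced as paired-end reads of 100 bases on a BGISEQ-500. Submitters' processing notes name HISAT2, Bowtie2 and RSEM and the builds mm10 and GRCm38.p6, without roles. The study's methods for these values were not given in the sources used here. The authors deposited 1 table of 17027 genes by Entrez ID and named its values TPM, but the deposited values are treated here as a score: they behave as a log2 of scaled reads divided by exon length, rescaled to nearly equal sums, and planned tests on TPM were therefore run on values rebuilt from them.

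Reads were recovered with exon-union lengths of GENCODE M21 (GRCm38). Steps were whole reads for 13835 genes and hundredths of reads, as estimated counts for genes that share reads, for 1735. Another 1290 genes took a searched length, Angptl4, Cpt1a, Scd2, Stip1, Gpam and Fads1 among them, and their levels rest on that length. In 83 abundant genes the steps were coherent. The other 84 genes, Gpx3, Gapdh, Slc5a2, Slc3a1 and Atp1b1 among them, were left out. Reads were turned into TPM and scaled by median-of-ratios factors. Genes whose mean TPM across all 56 libraries reached 1, 13492 in number, were tested on log2(scaled TPM + 1) with limma 3.58.1 in R 4.3.3 (mean-variance trend, 14 groups of regimen and time, Benjamini-Hochberg adjusted p under 0.05). The pseudocount of 1 understates differences of low genes. The script was tested on simulated data. Samples were grouped by their titles. The labels call the samples separate mice, so p-values measure the spread between mice, and groups of 4 limit precision.

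The gene lists, markers and the naming rule were chosen with earlier results of these data known. Genes were named as the 10 largest rises and falls (adjusted p under 0.05, mean scaled TPM of at least 10, no overlap), as anchors of each list plus up to 3 called members with the largest difference in main lists and up to 1 in the others, as the 3 strongest genes called alike at ZT8, and as Kap and the 5 genes with the largest change of TPM share, Klk1 and Umod (not called) and Eef1a1 among them. Some genes that this rule picks are not reported here. List members outside this rule were picked for the text after their values were seen. Same-numbered DRF and NRF mice did not deviate together (correlations of 0.32, -0.42, 0.26 and -0.17), so numbers were not used as pairs. One NRF ZT24 column carried a number absent from the labels and was kept in its group without a number.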

Additional observations from a re-analysis of the deposited data

Results flagged for a closer look

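Among 272 checks of 4-mouse groups for a mouse far from the other 3 (highest or lowest gap over the range above Dixon's critical value), 14 were positive, and chance gives about 1 in 20. Under DRF these were the high values of Cyp24a1 (633.9 scaled TPM), Per1 (16.8) and Kap (168077) and the low values of Yars (16.8) and Cmpk2 (14.9). Under NRF they were the high values of Lipe (16.1), Pck1 (6749), Map1lc3b (70.2) and Vegfa (260.3), the low values of Avpr2 (32.8), Irf7 (9.41), Rsad2 (44.0) and Cirbp (19.6), and a high summed level of liver markers (788.9).

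The regimen difference differed between ZT20 and ZT8 in 4246 genes and between ZT20 and the mean of the other times in 4083 (limma). For the largest rises reported at ZT20, the log2 difference at ZT20 minus that at ZT8 was 6.55 for Pdk4, 6.81 for Angptl4, 4.17 for Cyp24a1, 3.46 for Lgals4, 2.13 for Gm43305, 1.39 for Cyp4a14, 2.24 for Nr1d1, 2.36 for 9530057J20Rik and 2.80 for Klf11. For the largest falls reported it was -3.29 for Nat8f6, -2.53 for Sdf2l1, -1.72 for Ppard, -2.23 for Dleu7, -2.63 for Nat8f3, -1.44 for Creld2, -1.84 for Per2, -2.90 for Srebf1 and -2.35 for Scd2. The contrast was called for each of these 18, with the weakest evidence for Gm43305 (adjusted p = 0.029). These genes were picked for large ZT20 differences and the contrast uses the same ZT20 mice, so these calls are no separate support. Gm43305, Cyp4a14, Ppard and Creld2 had no called difference at ZT8 itself.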

How the results depend on the processing

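No named gene that was called changed sign, but the balance over all calls turned to more rises than falls in 3 of the alternatives below, and with plain TPM ribosome biogenesis turned to 4 higher against 3 lower. The count of genes called at ZT20 was 1411 with only the 8 ZT20 libraries and a replicate block, and 340 with a minimum of 1.5-fold. In alternatives chosen after seeing the data it was 1531 without DRF mice 3 and 4 and 1264 without DRF mice 1 and 4 and NRF mouse 2, fewer samples being compared. Another such alternative, with inner medulla and adipose sums as covariates, raised the count to 3279. With these covariates 5856 genes differed from ZT8 and 4916 from the other times. Leaving out 1 mouse at a time gave 2113 to 2861. With a 1.5-fold minimum, 1461 genes differed from ZT8 and 670 from the other times, and without those mice 2305 and 2364 differed from the other times. Leaving out 1 mouse gave 3755 to 4477 and 3260 to 4183. The share of calls higher under DRF was 62.7% with plain TPM, 43.2% with the deposited values, 45.0% with a mean TPM of at least 5, 49.5% with inner medulla and adipose sums as covariates, 50.1% without DRF mice 3 and 4, 50.3% with a 1.5-fold minimum and 46.6% to 48.0% with 1 mouse left out. The cause of these shifts was not tested. Replicate numbers do not pair these mice. With the replicate block in the fit of the 14 groups 2853 genes were called, 2792 of them shared with the fit without it, 4247 and 4042 genes differed from ZT8 and the other times, and 47.0% of calls were higher. Of 121 named genes tested, 87 were called and 39 kept direction and call in every alternative that tested them. These alternatives include the 1.5-fold minimum, which any smaller called difference fails by definition and which weakened 36 named genes. Depth was alike in all libraries, and low genes are limited by the pseudocount.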
